A study of Mus musculus with 17 samples.

Results

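The livers of 6 mouse embryos lacking alpha-fetoprotein were compared with a pool of wild-type embryonic liver RNA, across all genes of a 2-colour cDNA array. These 6 arrays are all the embryonic arrays among the 17 of the series and were chosen by their titles. The mutant line is called AFP1 kO in the labels, which do not describe the allele further. Embryos 1, 2 and 3 are labelled male and embryos 4, 5 and 6 female, each embryo was hybridised once, and its RNA always carried Cy5. The other channel, in Cy3, held wild-type RNA for which the labels name the same 4 animals on every array, although the labelling protocol gives another number. The sex label of that pool is male on the 2 arrays of embryos 1 and 2 and female on the other 4, and the names of embryos 1 and 2 begin with the letter K and those of the others with L. The pool label, the letter and in part the embryo's sex therefore move together and cannot be told apart. Both channels carry an age label of embryonic day 7.5, a stage before the mouse liver has formed, so it is kept as a label and not as the age. The remaining 11 arrays hold RNA of 6 adult mutant males of 17 weeks, 5 of them with both dye orientations, and serve here for the size of the dye effect and for comparison.

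Alpha-fetoprotein is the main plasma protein of the fetus, made by the yolk sac and by fetal hepatocytes, and its gene is shut down in liver after birth. It belongs to the albumin family, a row of neighbouring genes that also holds albumin (Alb) and afamin (Afm), whose products carry fatty acids, steroids, vitamin E and other ligands in blood. In rodents alpha-fetoprotein binds estrogen and keeps maternal estrogen from the fetal brain. The fetal liver is also the site where blood cells are formed, so its RNA mixes hepatocytes with erythroid and other blood cell precursors.

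All values are log2 ratios of mutant over pool, so 0 stands for equal signal, 1 for a doubling, and a mean is given ± SD over the 6 embryos. No wild-type embryo was measured alone, so the tests against 0 leave out the spread among wild-type embryos, and in whole liver fewer cells of a type and less RNA per cell cannot be told apart. The table holds ratios and no levels, so the labelled tissue could not be checked against the levels of hepatocyte markers. Each array held 20492 to 20697 values. The lowest and highest deposited numbers read as log2 of a ratio kept to 3 decimals plus 1 constant per array: all 55 embryo values that stood for a ratio under 0.1 lay on steps of 0.001. Larger ratios were not checked, since there the steps are too fine. The upper end was capped, since every value beyond 10 on an array was identical and stood for a ratio of 100000. Such capped values numbered 277 on the embryo arrays, between 20 and 106 per array, and embryo 6 had the most. A capped value is no measurement of size. The gene names of the embryo rows rest on moving these rows by 11, as described with the processing, and were not checked by another file.

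Of 17242 features tested, 26 differed from the pool at an adjusted p under 0.05 (limma), which is 0.151% of them. A feature is a gene, as the mean of its probes, or a probe with no gene name. Of these, 10 were higher (0.0580%) and 16 lower (0.0928%). Only 10 of the 26 have a gene name: Rnase4, Afm, Ddx3x and Sc5d rose, and Afp, Dhrs7, Prap1, Ccdc178, Cela2a and Cpa1 fell. Far more features leaned one way than passed: all 6 embryos were above 0 for 1410 features (8.18%) and all 6 below 0 for 1268 (7.35%). At an unadjusted p under 0.05 there were 3579, or 20.8% of the features. The median over all features was 0.01, 51% of them were above 0, and the median SD of a feature between embryos was 0.25.

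The count of 26 differed between settings. It was 83 with the capped values left out, 81 with a robust estimate of the spread, 61 when only features with a value on all arrays were used, and 88 over single probes. The first 3 of these contained all 26. Without any 1 embryo it dropped to between 2 and 5, and without both embryos 5 and 6 it was 2. With the letter as a covariate 33 passed, 21 higher and 12 lower, which reverses the balance of directions. Of the 26, 16 were among them, and Ccdc178 was not (adjusted p = 0.0743, in a range over alternatives of 0.0229 to 0.527). In all 6 fits that left out 1 embryo, only Afp and an unnamed probe, number 19614 on the array, passed.

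**Figure D1:**
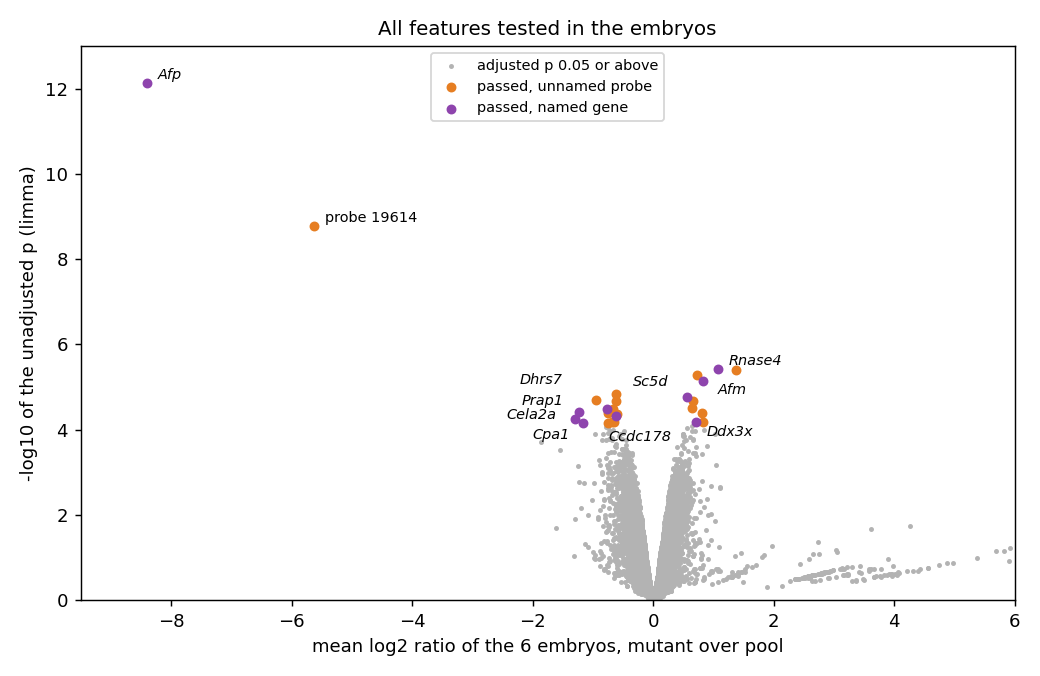
Mean log2 ratio of the 6 embryos (x axis) against -log10 of the unadjusted limma p (y axis) for each feature, with passing named genes in purple, passing unnamed probes in orange and the rest in grey; 17 features with means beyond 6 lie off the right edge. Afp at -8.40 and probe 19614 at -5.62 stand far from the other passing features, and the grey points that trail to the right at low -log10 p include features with capped values.

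Afp itself was lower in every embryo, at -8.42, -8.28, -8.79, -8.31, -8.11 and -8.50 in embryos 1 to 6. The embryos lay close together, and the mean of -8.40 ± 0.23 (SD, n = 6) had an adjusted p of 1.25e-08. The 3 Afp probes had means of -8.82, -8.49 and -7.90. The linear ratios behind them ran from 0.002 to 0.007, and 6 of the 18 were 0.002. With steps of 0.001 these readings give a few levels only, so the size of the fall and its SD are set in part by rounding. Adult mutants, measured with the same dye orientation, had an Afp ratio of -0.11 ± 0.24 (SD, n = 6), from -0.34 to 0.34. The deposited table names the rows so that Afp would read 0.14. The large fall is thus seen with the moved rows alone.

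The unnamed probe 19614 was the next lowest feature, at -5.36, -5.66, -6.59, -5.22, -5.36 and -5.53. Its mean was -5.62 ± 0.50 (SD, n = 6) with an adjusted p of 1.44e-05, and embryo 3 stood below the rest. Its number is 2 after that of the Afp probe 19612. In adults with the same dye orientation it was at -0.20 ± 0.36 (SD, n = 6).

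Afamin, the carrier of vitamin E encoded directly beside Afp, rose. Its values were 0.93, 0.63, 0.84, 0.76, 0.71 and 1.09, which put all embryos above the pool. The mean of 0.83 ± 0.16 (SD, n = 6) corresponds to 1.77 times the pool, with an adjusted p of 0.0211. The female mean was 0.85 and the male mean 0.80. Of the 6 fits without 1 embryo Afm passed 1. Albumin, on the other side of Afp, was at 0.59, 0.20, 0.03, 0.48, 0.25 and 0.06. All 6 values were above 0, but embryos 3 and 6 were close to it, and the mean of 0.27 ± 0.23 (SD, n = 6) did not pass (adjusted p = 0.17). Gc, the vitamin D carrier of the same family, was not analysed here.

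Since the changed genes Afp and Afm lie side by side, the 250 bases before the start of each member are shown to let a reader compare them. They come from RefSeq, build GRCm38.p6, plus strand of chromosome 5. Capitals mark GTTAAT or its reverse complement ATTAAC, the core of the sites bound by HNF1, a hepatocyte transcription factor known to act on this family. No other motif was searched.
Alb, chr5:90460620-90460869: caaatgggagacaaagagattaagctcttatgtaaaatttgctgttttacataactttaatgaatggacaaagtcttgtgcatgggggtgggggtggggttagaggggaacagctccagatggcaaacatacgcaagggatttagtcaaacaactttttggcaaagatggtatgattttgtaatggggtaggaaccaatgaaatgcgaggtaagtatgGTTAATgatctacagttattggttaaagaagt
Afp, chr5:90490464-90490713: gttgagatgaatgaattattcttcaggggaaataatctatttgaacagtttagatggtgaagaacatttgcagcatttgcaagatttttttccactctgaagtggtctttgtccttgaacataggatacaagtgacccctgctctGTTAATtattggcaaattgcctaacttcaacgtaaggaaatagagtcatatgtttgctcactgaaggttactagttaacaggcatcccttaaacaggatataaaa
Afm, chr5:90518699-90518948: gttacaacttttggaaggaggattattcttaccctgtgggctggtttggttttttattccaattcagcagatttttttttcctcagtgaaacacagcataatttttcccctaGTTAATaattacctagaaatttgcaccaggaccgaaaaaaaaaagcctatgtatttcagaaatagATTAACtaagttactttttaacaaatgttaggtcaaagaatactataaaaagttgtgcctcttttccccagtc
Alb held 1 match, Afp 1 and Afm 2. Among 32851 promoter windows of the same length, 2113 (6.4%) held at least 1 match. A match of letters is a description and not a measured site.

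Rnase4, a secreted ribonuclease that the liver makes in quantity, had the highest mean among the named genes that passed. Its 6 values were 1.43, 0.99, 1.18, 0.82, 0.89 and 1.16, all well above 0. The mean of 1.08 ± 0.22 (SD, n = 6) corresponds to 2.11 times the pool (adjusted p = 0.0176). Both of its probes showed it, at 1.12 ± 0.20 and 1.03 ± 0.33. It passed 2 of the 6 fits without 1 embryo. In adults with the same dye orientation the gene was at -0.06 ± 0.58 (SD, n = 6), and the fetal minus adult difference of 1.14 did not pass (adjusted p = 0.068). Of the other ribonuclease genes tested, the pancreatic type Rnase1 was below 0 in all embryos at -0.56 ± 0.26, without passing (limma), and the lysosomal Rnaset2b was at 0.26 ± 0.18. The ribonuclease inhibitor Rnh1 was at 0.20 ± 0.28.

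Sc5d encodes the sterol desaturase of a late step of cholesterol synthesis. It had the tightest values of the named genes that passed, at 0.60, 0.64, 0.50, 0.58, 0.56 and 0.49. The mean of 0.56 ± 0.06 (SD, n = 6) is 1.48 times the pool (adjusted p = 0.033). For Ddx3x, whose product is a helicase that unwinds RNA and whose gene lies on the X chromosome, the values were 1.01, 0.84, 0.81, 0.45, 0.47 and 0.71. The 3 males were each above the 3 females, the mean was 0.72 ± 0.22 (adjusted p = 0.0467), and the female minus male difference of -0.34 did not pass (adjusted p = 0.998). Neither gene passed any of the fits without 1 embryo.

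Among the falls, Dhrs7, a short-chain dehydrogenase of the endoplasmic reticulum, was at -1.05, -0.94, -0.82, -0.68, -0.46 and -0.68. Its mean was -0.77 ± 0.21 (adjusted p = 0.0405). Ccdc178, a coiled-coil protein gene, had values between -0.84 and -0.44 and a mean of -0.62 ± 0.15 (adjusted p = 0.0434). The other 3 are genes of digestive organs. Cela2a, a pancreatic elastase, was at -1.92, -1.56, -1.08, -0.68, -0.98 and -1.60, with a mean of -1.30 ± 0.47 (adjusted p = 0.0467). Cpa1, pancreatic carboxypeptidase A1, was at -1.69, -1.34, -0.47, -1.02, -1.44 and -1.03, with a mean of -1.17 ± 0.43 (adjusted p = 0.0467). Prap1, a secreted proline-rich protein of the gut, was at -1.54, -1.44, -0.72, -1.30, -0.72 and -1.64, with a mean of -1.22 ± 0.41 (adjusted p = 0.0408). Embryo 3 was nearest to 0 for Cpa1, and embryos 3 and 5 were for Prap1. None of these 5 genes passed a fit without 1 embryo.

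**Figure D2:**
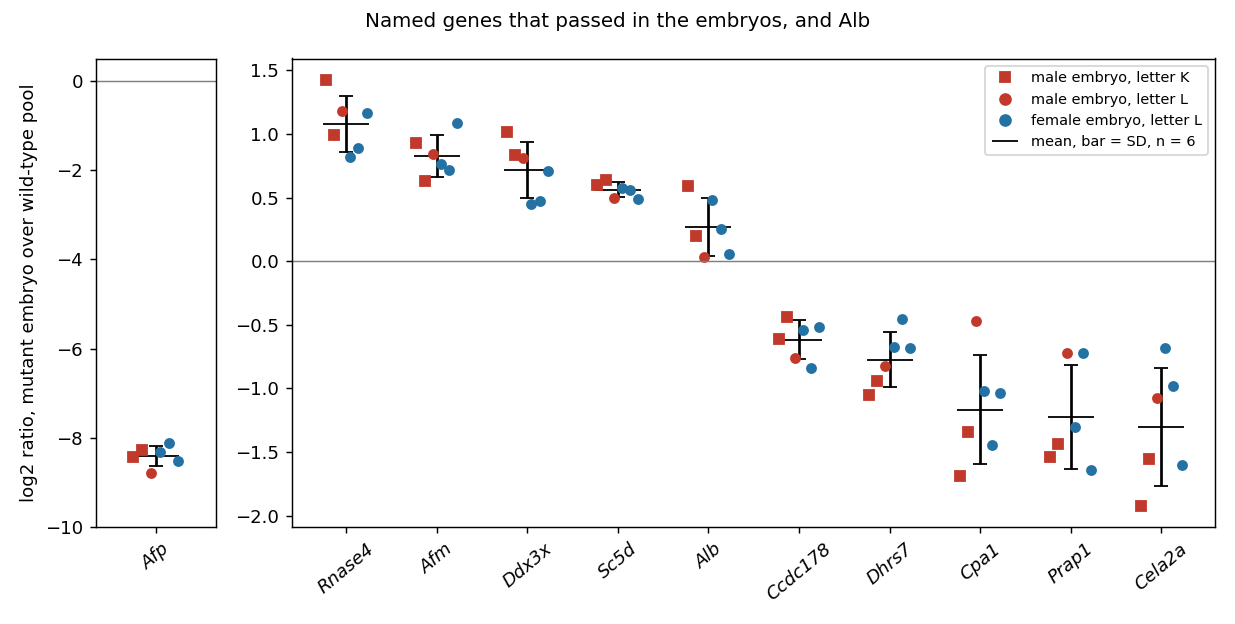
Log2 ratio of mutant embryo over pool (y axis) in each of the 6 embryos for the 10 named genes that passed and for Alb, with Afp on its own scale; points are embryos (red male, blue female, squares letter K, circles letter L), bars are mean and SD. All 6 points lie on the same side of 0 for every gene drawn, with Sc5d spread over 0.49 to 0.64 and Cela2a over -1.92 to -0.68.

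Of the 16 unnamed features that passed, 2 others led by p. The unnamed row 20482 of the table, which lies beyond the rows that could be moved, had a mean of 1.38 ± 0.32 (adjusted p = 0.0176), with values from 0.89 to 1.65. Probe 7623 had a mean of 0.74 ± 0.11 (adjusted p = 0.0183), with values from 0.59 to 0.89.

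Just outside the threshold stood named genes whose 6 embryos had the same sign. Of the 10 nearest above 0, Scd1, the desaturase that makes monounsaturated fatty acids, was at 0.64 ± 0.19 (adjusted p = 0.0504). The metallothionein Mt1, a metal-binding stress protein, was at 1.75, 1.01, 0.89, 1.11, 0.84 and 0.54, with a mean of 1.02 ± 0.40 (adjusted p = 0.0504). Ctsl, a lysosomal protease, was at 0.65 ± 0.21, and Serpina1b, an alpha-1-antitrypsin, at 0.70 ± 0.24 (both adjusted p = 0.0504). Npy, the neuropeptide Y gene, was at 0.85 ± 0.31. The metabolic genes Hgd (tyrosine breakdown), Gsta3 (glutathione conjugation), Mthfs (folate) and Lpin1 (triglyceride synthesis) and the dipeptidase Dpep1 lay between 0.40 and 0.62.

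Of the 10 nearest below 0, the chymotrypsinogen gene Ctrb1, also of the pancreas, was lowest. It was at -2.88, -2.44, -0.67, -1.78, -2.22 and -1.13, with a mean of -1.85 ± 0.83 (adjusted p = 0.0558), and embryo 3 was again nearest to 0. The others were Raly (an RNA-binding protein) at -0.86 ± 0.34, Tsc22d1 at -0.63 ± 0.25, Cdca8 (chromosome segregation) at -0.51 ± 0.15, Ppan (ribosome assembly) at -0.51 ± 0.18, Bmp2k and Defb19 at -0.52, Stk36 at -0.42, Vnn3 at -0.39 and the MHC class II gene H2-Ab1 at -0.36 ± 0.05. The 2 probes of Tsc22d1 differed, at -1.16 and -0.11, as did the 3 of Lpin1, at 0.54, 0.01 and 0.67. With the capped values left out, 15 of these 20 genes passed, and with a feature value required on every array 12 did. With the letter as a covariate 2 passed, and none did in limma fits without any 1 embryo, without embryos 5 and 6 or in letter L embryos alone.

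No embryo was measured with the dyes exchanged, so a gene that one dye labels better would read as changed in all 6. The adult arrays measured both orientations and give a dye term per feature. Over the 16072 features in common the embryo means and that term had a Spearman correlation of 0.39, given as a description across features that share arrays and dyes. Array by array it ran from 0.02 in embryo 6 to 0.47 in embryo 5. A single fit of all 17 arrays with a dye term was therefore set beside the main one. It takes the dye effect to be the same at both ages. In that fit 194 features passed (1.21%), 20 higher and 174 lower, against 10 higher and 16 lower without the term. Of the 174, 102 had an embryo mean above 0, so their sign differs between both fits. Of the 26 features that passed without the term, 25 could be fitted, 22 kept their sign and 6 passed: Afp, Afm, Rnase4, Cela2a and the probes 19614 and 7623. The fit also rests on the sign of the adult Cy3 columns, which is read from the values. With those columns turned, 62 features passed, 41 higher and 21 lower, and 8 of them were among the 194, so the balance of directions is the reverse. In that version all 25 kept their sign and 13 passed, with Afp, Afm and the probes 19614 and 7623 in both versions.

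With the dye term Afp was at -8.29 (SE 0.13), Afm at 1.06 (SE 0.16) and Rnase4 at 1.12 (SE 0.25). For Afm the adjusted p was 0.00822 in that fit, in a range over all alternatives of 9.96e-05 to 0.349. For Rnase4 it was 0.0421, in a range of 0.000223 to 0.349. Cela2a was at -1.12 (SE 0.26), and Ctrb1, Lpin1 and Ctsl passed as well, at -1.64, 0.60 and 0.68. Sc5d (0.46), Dhrs7 (-0.66), Prap1 (-1.01), Cpa1 (-0.72) and Ccdc178 (-0.18) kept their sign without passing. Ddx3x went to -0.02 (SE 0.17), and its adult dye term was 0.74, so its rise is not seen with the term included. With the adult Cy3 columns turned, Ddx3x was at 0.96 and passed, as did Sc5d (0.83), Cpa1 (-1.29) and Ccdc178 (-0.77), whereas Rnase4 (1.09) and Cela2a (-1.09) did not. The calls of these 6 genes thus differ with that sign. Ctrb1 (-1.76) also passed with the columns turned, whereas Lpin1 (0.34) and Ctsl (0.67) did not. Hgd, Raly, Bmp2k and Stk36 passed with the columns turned and not as deposited. Alb went to -0.004 (SE 0.25), Serpina1b to 0.05, Mthfs to -0.06 and Dpep1 to -0.53. The dye terms of Dpep1 and Serpina1b, with the columns as deposited, were 1.08 and 0.65.

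**Figure D3:**
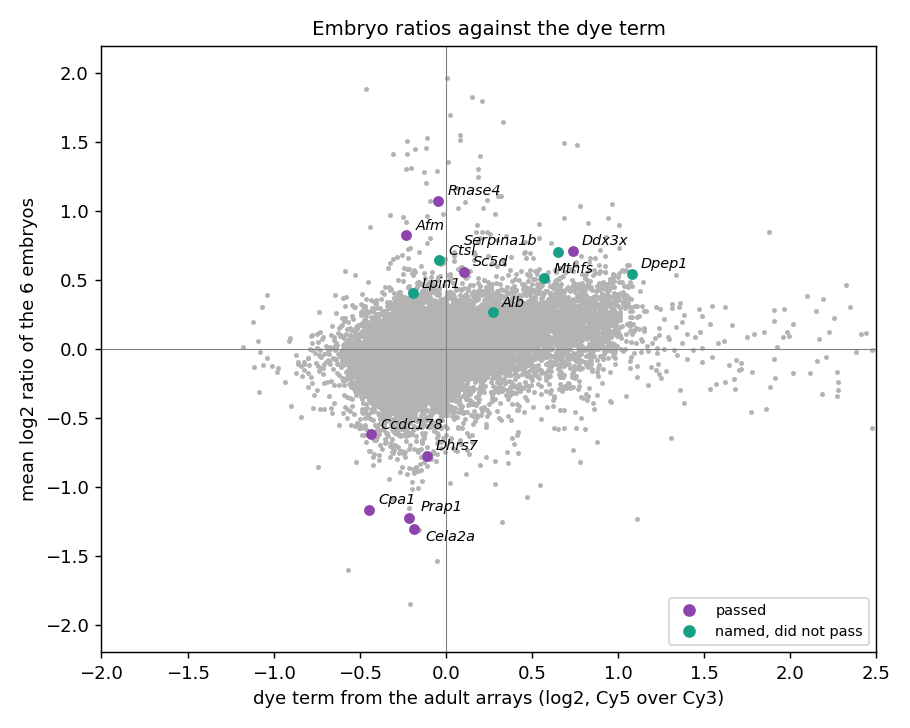
Mean log2 ratio of the 6 embryos (y axis) against the dye term from the adult arrays (x axis, log2) for features in both fits, with passing genes in purple, other named genes in green and 155 features, Afp among them, off the scale. Ddx3x, Serpina1b, Mthfs and Dpep1 sit at dye terms of 0.57 to 1.08, and Rnase4, Ctsl and Afm between -0.23 and -0.04. The dye term takes the adult Cy3 columns as deposited.

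**Figure D4:**
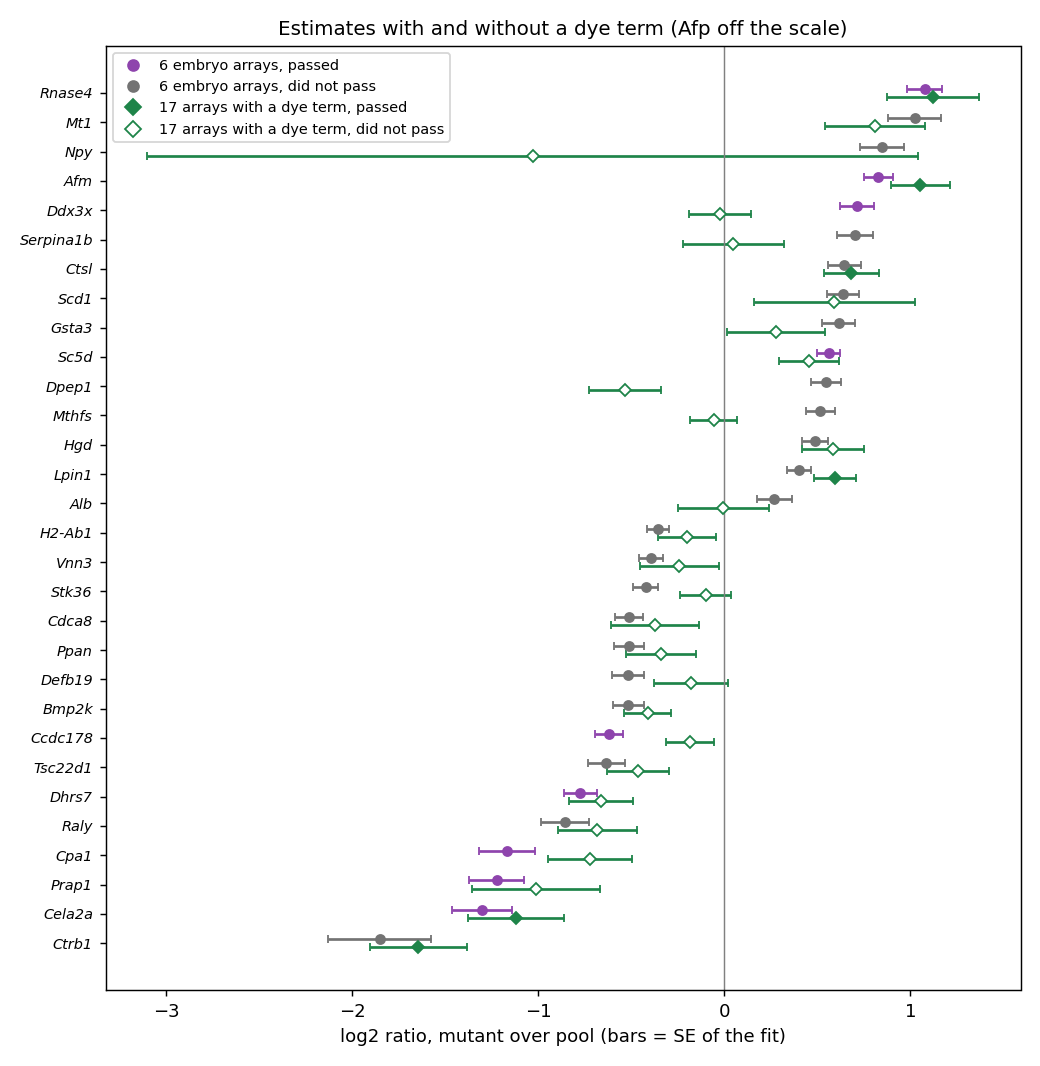
Log2 ratio (x axis, bars are SE of the fit) of the named genes from the 6 embryo arrays (circles) and from all 17 arrays with a dye term (diamonds, filled where passed); Afp is off the scale. Rnase4, Afm, Ctsl, Lpin1, Cela2a and Ctrb1 have filled diamonds, while Ddx3x and Alb move to 0 and Npy has an SE of 2.07 with the term. The diamonds take the adult Cy3 columns as deposited. With those columns turned (not drawn), only Afm and Ctrb1 of the filled genes passed, and Ddx3x and Alb were at 0.96 and 0.93.

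The gene lists put these single genes in the context of liver functions. No list was tested, and of 866 list genes tested singly 8 passed, against 26 of all 17242 features (0.151%). The lists were written with earlier results of these data known, so these counts cannot show an enrichment. The medians of 34 of 46 lists were above 0. Over all features 51% were above 0 and the median was 0.01. With the dye term 29 of the 46 list medians were above 0, beside 56.7% of all features and a median over all features of 0.05, and 31 of the 46 had the same sign in both fits. Here and in the list paragraphs below, the dye term takes the adult Cy3 columns as deposited. Lists were not evaluated with those columns turned, so a change with the term rests on that sign.

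Among the factors that control Afp transcription, 9 of 16 genes tested were above 0, none passed, and the median was 0.02. Cebpa, a hepatocyte factor, was below 0 in every embryo, from -1.52 to -0.21, with a mean of -0.67 ± 0.50 (adjusted p = 0.11). Nr5a2 was at 0.42 ± 0.33 and turned to -0.16 with the dye term. Of 20 genes for carriers and enzymes of the ligands that alpha-fetoprotein binds, 12 were above 0 with a median of 0.07. Serpina6, the plasma carrier of corticosteroids, was above 0 in all embryos, from 0.23 to 0.74, with a mean of 0.45 ± 0.19 (adjusted p = 0.078). Rbp4, the plasma carrier of retinol, was at 0.41 ± 0.31, and the retinoic acid binding protein gene Crabp1 was below 0 in all embryos at -0.45 ± 0.30.

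Plasma protein genes of hepatocytes leaned upward without the dye term. Of 12 transport protein genes, 11 were above 0 and 6 had all embryos above 0 (50% of the list, against 8.18% of all features). The median was 0.28 and none passed. With the dye term, Cy3 columns as deposited, 6 of the 12 were above 0 and the median was 0.02. Whether the lean also goes with those columns turned was not tested. Fetub, a fetuin, was at 0.48 ± 0.30 and turned to -0.32 with the term, whereas Serpina6 was at 0.62. Among 17 plasma protease inhibitor genes, 13 were above 0 with a median of 0.26 (0.07 with the dye term). Spink1, a trypsin inhibitor, was at 0.77 ± 0.57 and 0.88 with the term. Among 15 coagulation genes, 11 were above 0 with a median of 0.11 (0.21 with the term), with Pros1, protein S, at 0.30 ± 0.19 and Serpinc1, antithrombin, at 0.26 ± 0.19. Apolipoprotein genes were above 0 in 9 of 13 cases with a median of 0.17 (0.14 with the term), and Pltp, a phospholipid transfer protein, was at 0.39 ± 0.25. Complement and acute phase genes were split, with 11 of 18 above 0 and a median of 0.05 that turned to -0.10 with the term: Itih2 and Mbl2 were at 0.45 and 0.53, and the acute phase genes Lcn2 and Saa3 were at -0.36 and -0.47.

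Most lipid synthesis genes lay above 0 in both fits. Of 13 cholesterol synthesis genes, 11 were above 0 and Sc5d passed. Their median was 0.10, and 0.34 with the dye term, where 12 of 13 were above 0. Pmvk and Mvd, enzymes of the mevalonate branch, were at 0.60 ± 0.37 and 0.37 ± 0.33, and the sterol oxidase Msmo1 at 0.43 ± 0.27. These 3 were above 0 in all embryos, and none of them passed. Together with Sc5d they are 30.8% of the list, against 8.18% of all features. Of 28 fatty acid and triglyceride synthesis genes, 19 were above 0, with a median of 0.09 (0.20 with the term) and array medians between 0.09 and 0.23 in all 6 embryos. Scd1 and Lpin1 are described above, and Acly, which makes the acetyl-CoA for this pathway, was at 0.39 ± 0.21. Pnpla3, a lipase of lipid droplets, was at 0.95 ± 0.62 and went to 0.01 with the dye term.

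Fat oxidation showed no such lean, with 9 of 19 genes above 0 and a median of -0.01. Acads and Acadvl, which start the breakdown of short and very long fatty acids, were at -0.34 ± 0.24 and -0.37 ± 0.37. Acaa1b of the same list was above 0 in all embryos at 0.26 ± 0.16. Bile acid and sterol export genes were above 0 in 4 of 12 cases (median -0.04, and 0.14 with the term). Cytochrome P450 and conjugation genes were above 0 in 10 of 20 cases, with Gsta3 near the threshold and Cyp2d22 below 0 in all embryos at -0.46 ± 0.17. Steroid synthesis and handling genes were above 0 in 6 of 20 cases (median -0.10), and the sign of the median turned to 0.04 with the dye term. Cyp17a1, which makes androgen precursors, was at -0.50 ± 0.33 without passing and passed at -1.29 with the term. Amino acid and urea cycle genes (18 of 31 above 0, median 0.02) and glucose and glycogen genes (11 of 26, median -0.03) were near 0. Slc2a2, the hepatocyte glucose transporter, was below 0 in all embryos, from -0.73 to -0.10.

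Genes of general cell machinery leaned upward by small amounts. Of 58 cytosolic ribosomal protein genes, 46 were above 0, 20 of them in every embryo (34.5% of the list, against 8.18% of all features), and none passed. Their median was 0.20, between 0.05 in embryo 1 and 0.51 in embryo 3, and 0.14 with the dye term. Rps29 was at 0.60 ± 0.28, Fau at 0.49 ± 0.21 and Rps13 at 0.30 ± 0.09. Of 62 respiratory chain genes, 51 were above 0 (median 0.11, and 0.07 with the term), with Ndufb7 below 0 in all embryos at -0.50 ± 0.24. Proteasome genes were above 0 in 29 of 38 cases (median 0.10). Cell cycle and DNA replication genes were above 0 in 38 of 51 cases (median 0.09), with the transcription factor E2f1 at 0.46 ± 0.21 and the primase Prim1 at 0.31 ± 0.14. Heat shock genes (8 of 16 above 0, median -0.01) and oxidative stress genes (12 of 23, median 0.03) were near 0. Secretory pathway genes were above 0 in 18 of 39 cases, and their median of -0.04 turned to 0.11 with the term.

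**Figure D5:**
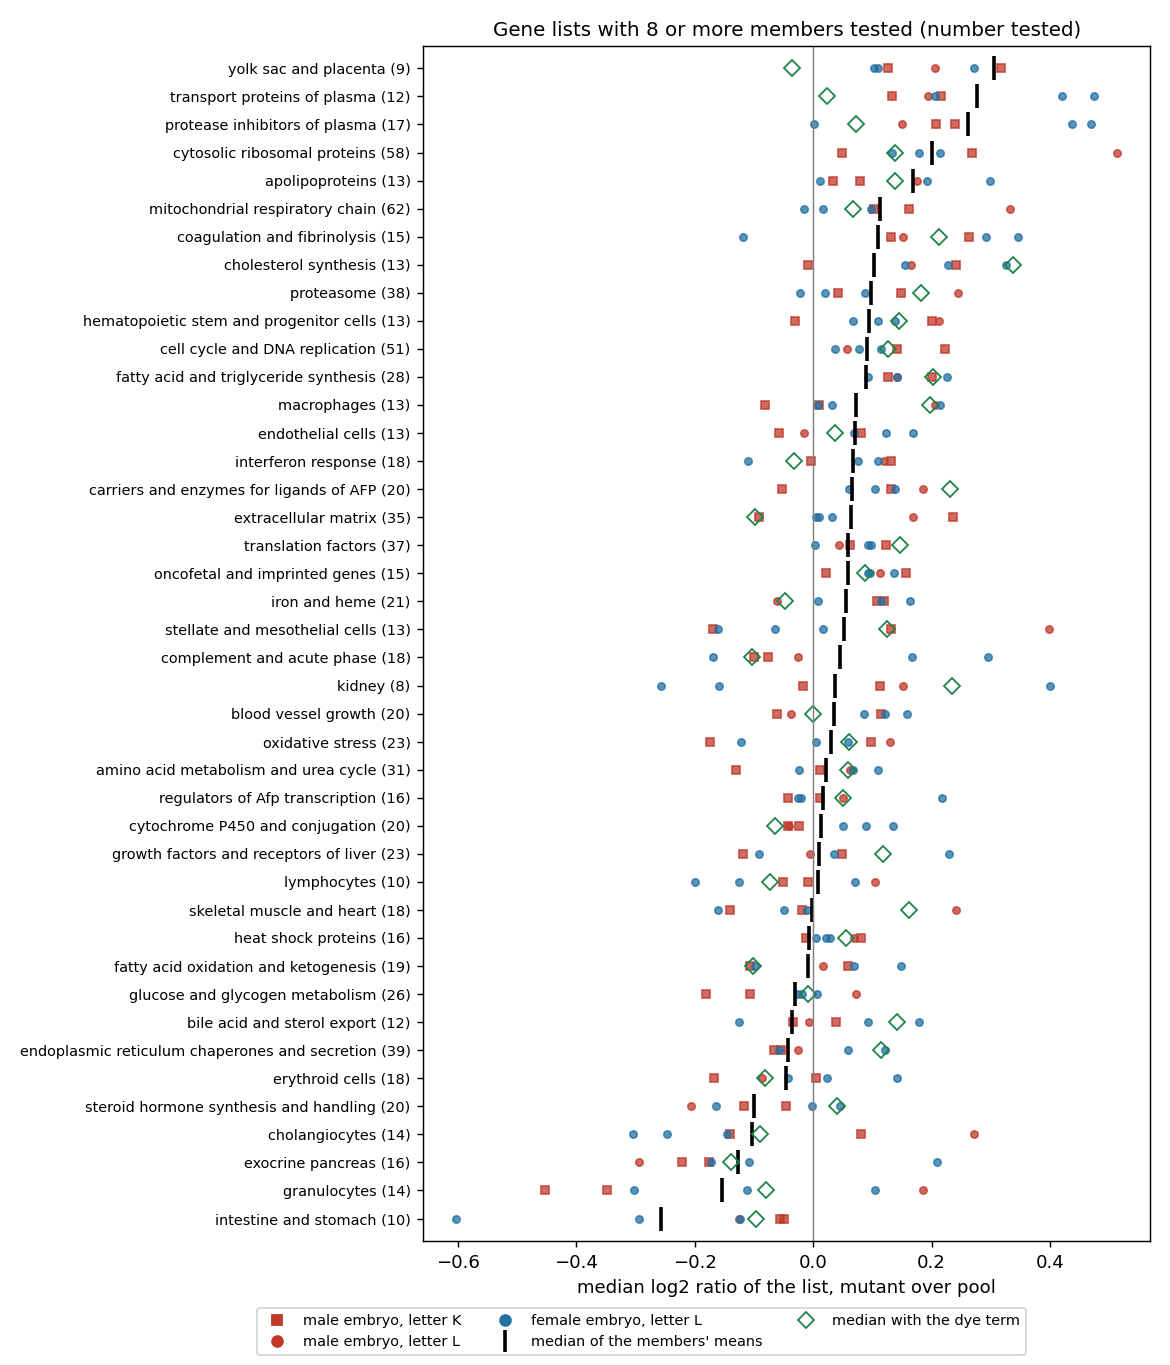
Median log2 ratio (x axis) of the 42 gene lists with 8 or more members tested, one row per list with the number tested in brackets; small points are the 6 embryos, black bars the median of the members' means, green diamonds the median with the dye term. Ribosomal protein genes have all 6 embryo medians above 0, between 0.05 and 0.51, whereas for plasma transport proteins the diamond at 0.02 lies left of all 6 embryos. The diamonds take the adult Cy3 columns as deposited.

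Among blood cell genes none passed without the dye term. Of 5 megakaryocyte and platelet genes, 3 were above 0 in all embryos (60% of the list, against 8.18% of all features). These were Gp9 at 0.36 ± 0.18, Pf4 at 0.40 ± 0.31 and Itga2b at 0.24 ± 0.23. The other 2 had means below 0, Gp5 among them at -0.13 ± 0.26. The median of this list was 0.24, above 0 in all 6 embryos, and turned to -0.07 with the dye term. Of 18 erythroid genes, 7 were above 0 and none passed, with a median of -0.05. The globin gene Hba-a1 was below 0 in every embryo, from -0.37 to -0.06, and Slc4a1, the anion exchanger of red cells, was at -0.35 ± 0.25, whereas Car1, a carbonic anhydrase, was at 0.62 ± 0.40 and passed at 0.94 with the dye term. Progenitor markers were above 0 in 9 of 13 cases (median 0.09). In every embryo 3 of them were above 0 (23.1%, against 8.18% of all features), Cd48 among these at 0.49 ± 0.34. A further 2 were below 0 in every embryo (15.4%, against 7.35%), Gfi1b among these at -0.27 ± 0.22. Of 14 granulocyte genes, 11 were below 0, with a median of -0.15 that was -0.45 in embryo 2 and 0.19 in embryo 3. Lcn2 and Ltf were below 0 in all embryos at -0.36 and -0.28, and Ngp was at -0.45 ± 0.43 and passed at -0.75 with the term. Macrophage genes (7 of 13 above 0, median 0.07) and lymphocyte genes (5 of 10, median 0.01) showed no common lean, with the B-cell kinase gene Blk at -0.74 ± 0.38. Of 13 endothelial genes 9 were above 0 (median 0.07).

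Genes of other digestive organs stood among the falls described above. Of 16 exocrine pancreas genes tested, 10 were below 0 and 2 passed, Cela2a and Cpa1. The median was -0.13, from -0.29 in embryo 3 to 0.21 in embryo 5, and -0.14 with the dye term. Cela2a, Cpa1, Ctrb1 and Rnase1 were below 0 in all embryos (25% of the list, against 7.35% of all features). The opposite held for 3 other members, above 0 in all embryos (18.8%, against 8.18%). Rnase1 went to -0.03 with the dye term. Of 10 intestine and stomach genes, 7 were below 0 and Prap1 passed. Their median of -0.26 was below 0 in every embryo, down to -0.60 in embryo 5. Guca2b, a gut peptide, was at -1.70, -1.33, -0.88, -0.65, 0.02 and -1.39, and passed at -1.53 with the dye term. Since the table holds no levels, whether these transcripts came from tissue outside the liver was not tested. Bile duct genes were below 0 in 10 of 14 cases (median -0.10). Yolk sac and placenta genes were above 0 in 7 of 9 cases (median 0.30, and -0.04 with the term), with Dab2 and Amn, which act in endocytosis, at 0.55 ± 0.52 and 0.38 ± 0.36 and both below 0 with the term. Kidney (5 of 8 above 0) and muscle genes (8 of 18) were near 0.

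The 3 female and 3 male embryos were compared next. Of 17212 features, 2 passed (0.0116%), Pemt and an unnamed feature. Pemt, which makes phosphatidylcholine in liver, had capped values in all 3 males and values of -0.07 and 0.94 in the 2 females measured, so its difference of -16.08 has no meaning as a size, and with capped values left out no feature passed (limma; 574 at an unadjusted p under 0.05). The named genes next by p were Mob1a at -1.46, Tmem14c at 2.73, Ankrd61 at 1.59 and Krt19 at -1.22, female minus male, with adjusted p from 0.715 to 0.998. None of the 10 named genes that passed against the pool differed between the sexes, with adjusted p from 0.998 to 1. Of the sex markers measured, the Y-linked Zfy1 was at -0.10 ± 0.22 over all embryos and 0.13 apart between the sexes, and the X-linked Kdm5c and Eif2s3x at 0.01 ± 0.31 and 0.07 ± 0.20. None of them passed, and the sex labels could not be checked with them. Leaving out embryo 4 or embryo 6 left no passing feature (644 and 671 at an unadjusted p under 0.05), and leaving out embryo 2, 3 or 5 gave 4.

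The embryos were also set against those 6 arrays of adults in which mutant RNA carried Cy5, where a dye effect shared by both ages cancels. Of 16314 features, 23 differed (0.141%), 8 with a higher and 15 with a lower ratio in the embryos. Afp differed by -8.29 (SE 0.15). Afm differed by 1.19 (SE 0.20, adjusted p = 0.0323), from 0.83 ± 0.16 in embryos and -0.36 ± 0.45 in adults. Cyp17a1 was at -0.50 ± 0.33 in embryos and at 1.03 ± 0.44 in adults, a difference of -1.53 (adjusted p = 0.019). The oscillating repressor gene Hes7 was at 0.54 ± 0.28 and -0.62 ± 0.25, a difference of 1.16 (adjusted p = 0.019). The remaining named examples, Cnp (0.84), Bzw2 (-0.92) and Luzp1 (-0.83), had fetal means between -0.19 and 0.18. Their difference therefore lay mostly in the adult ratios with the mutant in Cy5. With the adult Cy3 columns as deposited, the adult dye term was 0.88 for Bzw2 and 0.78 for Cyp17a1. How much of such adult ratios is dye was not tested. With adult means over both dyes 9 features passed, 4 of the 23 among them. Sc5d (0.73), Alb (0.66), Ddx3x (0.22), Dhrs7 (-0.41), Prap1 (-0.84), Cela2a (-0.90), Cpa1 (-0.85) and Ccdc178 (-0.33) did not differ at the threshold. The count rested on single arrays: without the first adult array it was 1224, without embryo 5 it was 78, and without any other 1 array between 4 and 18.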

How the data were processed

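Total RNA of single livers was labelled indirectly with Cy3 or Cy5 and hybridised with the pool in the other dye, per the labels' protocols. The authors deposited log2 ratios in 1 table of 20794 rows and 17 columns. No source used here gives the image analysis, background correction or spot filters. Deposited values for ratios under 0.1 and at the cap read as log2 of a ratio to 3 decimals plus 1 constant per array, with the sign turned in adult columns with the mutant in Cy3. Those columns were therefore taken as mutant over pool already. Whether a dye correction that varies with intensity was applied to the other values was not tested. Depth has no meaning for these ratios, and the number of arrays limits the precision.

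The embryo value of probe p stands in row p + 11 up to probe 20000. Of 41 offsets compared, this one gave the highest Spearman correlation between the embryo mean and the dye profile of the adults, 0.385. It was 0.0174 without a move and reached 0.1627 elsewhere. The first 11 rows and those after the last moved row, 794 together, stay unnamed. Names came from the platform annotation: 12771 probes had 1 gene symbol, 0 several and 8023 none, and all 12771 Entrez IDs were found in RefSeq (GRCm38.p6), which changed 0 symbols.

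Each comparison was fitted in R 4.3.3 with lmFit and eBayes of limma 3.58.1 and adjusted by Benjamini-Hochberg over all features (threshold 0.05), with at least 4 of 6 values, or 2 per sex (the letter fits between sexes rest on 1 male of letter L). The joint fit had terms for adult, fetal and dye, with the adult animal as a random block (consensus correlation -0.0969 as deposited, and 0.0992 with the Cy3 columns turned, so arrays of an animal agreed slightly better when turned). No source says that embryos came from separate litters, so p-values measure the spread between these samples. On simulated data of 17242 features with 200 changed, 65 were recovered at a log2 change of 0.5, 161 at 1 and 195 at 2. The members and lists were chosen with earlier results of these data known. The text names the albumin family, named genes that passed, the 10 nearest in each direction with 6 embryos of the same sign, up to 4 members of each list by p, 3 unnamed features, up to 6 genes passing (or the 5 nearest) between sexes and ages, and sex markers. Alternatives changed centring, capped values, variance estimation, missing values, probe averaging, row naming, the dye term, the letter and single arrays.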

Additional observations from a re-analysis of the deposited data

Results flagged for a closer look

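In 84 groups of 6 embryo values, 7 had 1 embryo far from the others by Dixon's test at 95%, and chance alone gives about 1 in 20. Probe 19614 was at -6.59 in embryo 3, below the other 5. The median of the regulators of Afp transcription was 0.22 in embryo 6, that of megakaryocyte and platelet genes 0.48 in embryo 3, that of exocrine pancreas genes 0.21 in embryo 5 and that of muscle genes 0.24 in embryo 3. Embryo 6 had 302 missing and 106 capped values, more than any other embryo.

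Several ratios differed between embryos and adults by the test of the difference itself. The fetal minus adult difference was -8.29 for Afp, 1.19 for Afm, -5.42 for probe 19614, 1.06 for probe 7623, 1.16 for Hes7, -1.53 for Cyp17a1, 0.84 for Cnp, -0.92 for Bzw2 and -0.83 for Luzp1. Between the sexes Pemt differed by -16.08, a value made of capped readings in the 3 males.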

How the results depend on the processing

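Centring each array on its median kept all 26 features that passed against the pool and the signs of all 46 list medians. That count was 83 without capped values, 81 with robust variances, 61 with a value on every array, 88 over single probes, 194 with the dye term and 4942 with the adult dye profile subtracted (which ignores that profile's error). It was 2 without embryos 5 and 6, 2 with letter L embryos alone, 33 with the letter as a covariate (21 higher, 12 lower, 16 of the 26 among them) and 2 to 5 without 1 embryo. With the adult Cy3 arrays turned in sign the dye-term count was 62 (41 higher and 21 lower, against 20 and 174), 8 of them among the 194. Female minus male counts were 0 without capped values, 1 with robust variances, 0 with a value on every array (limma; 574 and 524 at an unadjusted p under 0.05), and 0 to 4 without 1 embryo. They were 31 with the letter as a covariate and 15 in letter L embryos, but both rest on embryo 3 as the 1 male of letter L, assumed to vary like the others. Fetal minus adult counts were 42, 40 and 36 without capped values, with robust variances and with a value on every array, 9 with adult means over both dyes, 1579 with rows named as deposited and 4 to 1224 without 1 array, the highest without the first adult array.

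With rows named as deposited, Afp was at 0.14, Sc5d at -0.063, Ddx3x at -0.48, Dhrs7 at 0.053, Prap1 at 0.094, Cpa1 at 0.25 and probe 7623 at -0.12, since other rows then carry these names. Ddx3x was at -0.037 with the adult dye profile subtracted and -0.024 with the dye term, and Dpep1 at -0.46 with the profile subtracted. These values take the adult Cy3 columns as deposited. With those columns turned, the dye-term fit put Ddx3x at 0.96 and Dpep1 at 0.66. The signs of 31 of 46 list medians were the same with the dye term (adult Cy3 columns as deposited) and of 39 to 44 without 1 embryo. For other changes of count the cause was not tested.

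Embryo and adult titles share the numbers 1, 3 and 5 but name different animals. The deviations of same-numbered arrays correlated at 0.07, -0.04 and 0.08, so the numbers were not taken to pair them. With the number as a replicate block over these arrays the fetal minus adult count was 2. Ratios near the 0.001 step and capped values bound what size can be read.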

Other observations

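The probes around the 3 Afp probes on the array were read after the low value of probe 19614 was seen. Of 24 probes within 4 numbers of an Afp probe, the 3 that stand 2 numbers after one were the lowest: probe 19614 at -5.62 ± 0.50, the unnamed probe 19711 at -1.25 ± 0.68 and the Txnrd2 probe 19731 at -0.65 ± 0.33 (SD, n = 6 each), all below 0 in every embryo. The other 21 had means between -0.45 and 0.57. No test was made.

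Among the 20 genes on each side of Afp in RefSeq order, 11 were measured, and these too were looked at after the fact. Of them 8 were above 0, with a median of 0.19, and Afm passed. The others lay between -0.11 and 0.41, highest for Ankrd17, followed by Pf4 at 0.40 and Rchy1 at 0.33.

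Igfbp1, an insulin-like growth factor binding protein of fetal liver, was at -0.13 and 0.02 in embryos 1 and 2 and at 0.98, 1.70, 1.57 and 1.64 in the other 4, which is also where the letter and the pool's sex label change. Col1a2, a collagen gene of stellate cells, went the other way at 4.54 and 3.84 against -0.37 to 0.81. Neither passed (adjusted p = 0.129 and 0.289, limma), and they were picked after their values were seen. A gene value averages its probes with capped readings left in. Whether a capped reading lies behind the 4.54 and 3.84 of Col1a2 was not tested, so their size is uncertain. Of 13 stellate and mesothelial genes 9 were above 0 (median 0.05). The collagen gene Col3a1 among them did not split in this way, at 0.96 and -0.41 in embryos 1 and 2 and 0.14 to 1.48 in the others.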
